A study of Mus musculus with 22 samples.

Results

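Retinal microglia of wild-type mice that had taken up injected dead neurons were compared with microglia from the same kind of eye that had not. The comparison rests on 10 of the 22 libraries of the series, namely all 5 pools titled wild type phagocytic and all 5 titled wild type non-phagocytic. Animals were C57BL/6 mice aged 12 weeks, and apoptotic neurons had been injected into the vitreous of every eye, those behind the non-phagocytic pools included, so that neither sort stands for an uninjected retina. Cells carrying CD11b and Fcrls and lacking Ly6c were sorted, and the Alexa488 label then split them into phagocytic and non-phagocytic cells. Each library pooled 5 to 6 retinas of 1 sex and genotype, with 100 to 500 phagocytic cells collected, and cells were profiled by SMART-Seq2, a full-length cDNA method, 24 hours after injection. The other 12 libraries came from the same 2 sorts of Apoe-/- mice (n = 6 each), which lack the lipid carrier apolipoprotein E. Since the libraries are pools of cells, a lower share of cells expressing a gene and less RNA per cell cannot be told apart in any value below.

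Microglia are the resident macrophages of the retina and clear dying neurons by efferocytosis, the engulfment of apoptotic cells. Receptors for phosphatidylserine bind the corpse, the actin cytoskeleton closes a phagosome around it, and fusion with lysosomes, acidified by a proton pump, digests it. The digested cell leaves the phagocyte with cholesterol, fatty acids, iron and nucleic acids to store, export or break down. Microglia in degenerating tissue are known to take on a state called MGnD, in which Apoe, Gpnmb, Spp1 and lysosomal genes are high and homeostatic genes such as P2ry12 and Tmem119 are low.

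Wild-type libraries held 1500278 to 3045175 estimated reads and 17146 to 19168 detected genes, with 9.14% to 28.4% of reads on satellite-like predicted genes and 0.761% to 1.72% on mitochondrial genes. Total reads, detected genes and these shares did not pass an exact permutation test between the sorts (two-sided, lowest adjusted p = 0.286, where 5 against 5 allows an unadjusted p of 0.00794 at the least). Defining genes of microglia were present in every library, and they were lowest in library 4 of both sorts, where Tmem119 stood at 296 and 355 CPM (counts scaled to the same library size after TMM adjustment) against 604 to 1950 CPM in the other 8. The granule genes S100a8 and S100a9 were highest in library 4 of both sorts, at 220 and 167 CPM and at 186 and 184 CPM. Library 5 of both sorts had no reads of the Y-linked gene Ddx3y, which stood at 22.4 to 37.5 CPM in the other 8, so that these pools differed in sex from the rest. Non-phagocytic libraries 4 and 5 also held more dendritic cell and MHC class II transcripts than the other 8, and results are therefore also given without library 4 of both sorts, without library 5 of both sorts, or without non-phagocytic libraries 4 and 5 where that ends a call. Libraries are numbered 1 to 5 in each sort, and values are listed in that order. Each library is 1 pool, and the p-values reflect how much pools vary.

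The main fit called a small set of genes. Across the alternative settings given below, the number called ranged from 4 to 126. Of 12415 genes tested with edgeR (quasi-likelihood test, adjusted p under 0.05), 26 passed, which is 0.209% of those tested. Of these, 24 rose in phagocytic cells (0.193% of those tested) and 2 fell (0.0161%). Among the 24 genes that rose were those of chemokines (Ccl6, Ccl9, Ccl24, Cxcl3, Pf4), a lipid droplet coat (Plin2) and lysosomal proteins (Lamp1, Gpnmb, Atp6v0c, Lyz2, Pld3). Both ferritin chains (Ftl1, Fth1) and secreted or surface proteins tied to repair (Inhba, Pdpn, F13a1) were also among them. The others were Cstb, Lgals3, Clec4e, Uap1l1, Ninj1, Gas7, Esd and Vat1. In 23 of the 26 the values of the sorts did not overlap, the exceptions being Cstb, Inhba and Lyz2. Over all genes tested, all 5 phagocytic libraries stood above all 5 non-phagocytic libraries for 187 of the 12415 genes (1.51%) and below them for 79 (0.636%).

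**Figure D1:**
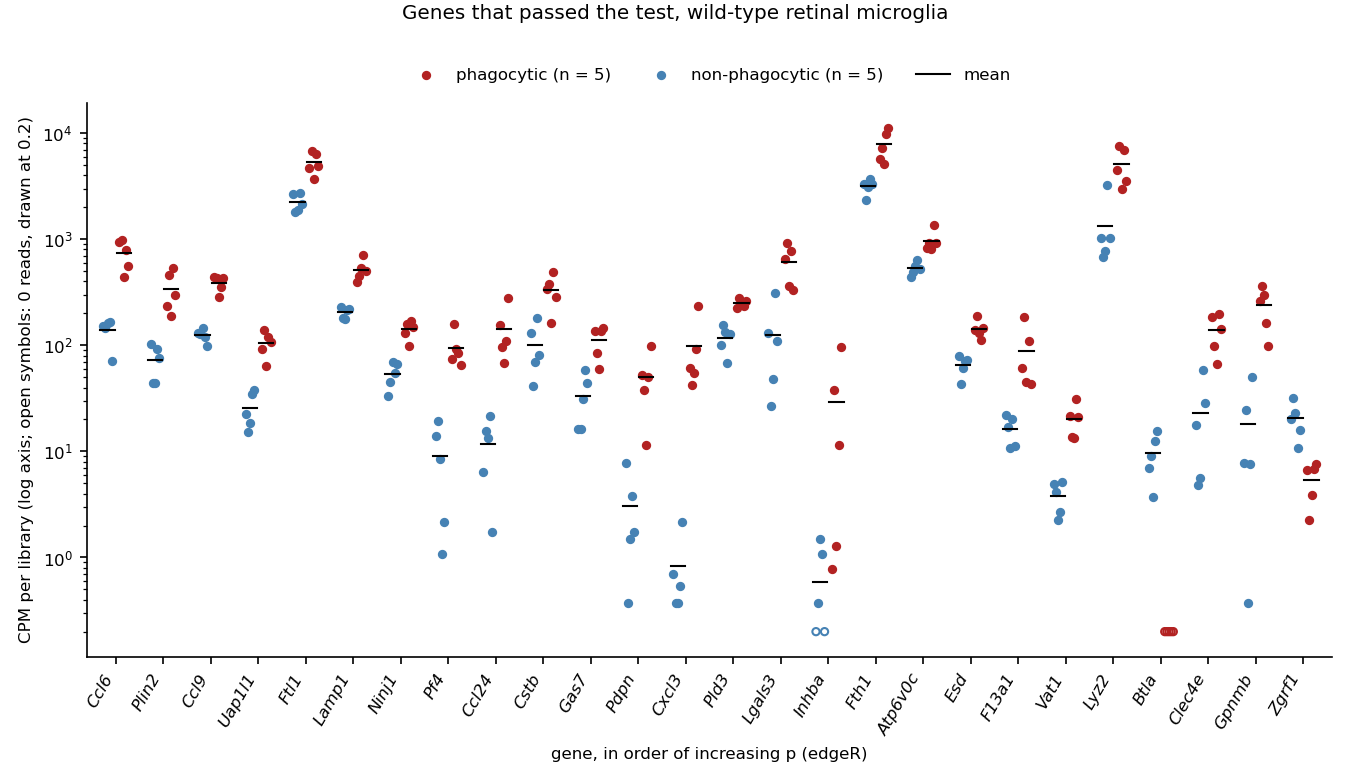
CPM of the 26 genes that passed the test in each of the 10 wild-type libraries, on a log axis, ordered by p, with a bar at each sort's mean; open symbols mark 0 reads. The phagocytic libraries lie above the non-phagocytic ones for 21 of the 24 genes that rose, and Btla had 0 reads in all 5 phagocytic libraries.

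The calls differed in how often they held when the libraries or the fit were varied. Ccl6, Plin2, Ccl9 and Uap1l1 passed in each of 23 alternative settings, with highest adjusted p of 0.00325, 0.0095, 0.0227 and 0.0463 across edgeR, DESeq2 and limma fits. Ftl1, Lamp1, Ninj1, Pf4, Ccl24, Cstb and Gas7 also passed without any 1 library, which makes 11 such genes. Without library 5 of both sorts only the first 4 of these passed, and the number of genes called in all dropped to 4. Leaving out 1 library gave 13 calls for non-phagocytic library 3, 14 for phagocytic library 2, 16 for non-phagocytic library 2 or 5 and 64 for non-phagocytic library 4. Without library 4 of both sorts, Pld3, Fth1, Atp6v0c, F13a1, Vat1, Btla and Gpnmb missed the threshold (edgeR adjusted p of 0.0535 to 0.153), and without non-phagocytic libraries 4 and 5 Pld3, Inhba, F13a1, Vat1 and Btla did (0.0605 to 0.0825). The fit of the 10 wild-type libraries alone lost Cstb, Gas7, Pld3, Lgals3, Fth1, Atp6v0c, Lyz2, Clec4e and Zgrf1 (edgeR adjusted p of 0.0737 to 0.124). Every one of the 26 genes kept its direction in each of the 23 settings where it could be tested. With library number as a block in the fit, the 10 wild-type libraries gave 126 calls, against 20 without it. Statements that no gene of a list passed refer to the main fit, which has no block.

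Levels on a per-length scale (TPM, abundance corrected for transcript length) put the ferritin and lysozyme genes far above the rest of the 26. In phagocytic libraries the mean TPM was 9670 for Fth1, 6360 for Ftl1 and 4170 for Lyz2, against 882 for Atp6v0c, 846 for Ccl6 and 728 for Cstb. At the other end stood Gas7 with 18.4 TPM, Inhba with 16.6 TPM, Vat1 with 7.12 TPM, Zgrf1 with 1.77 TPM and Btla with 0 TPM.

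**Figure D2:**
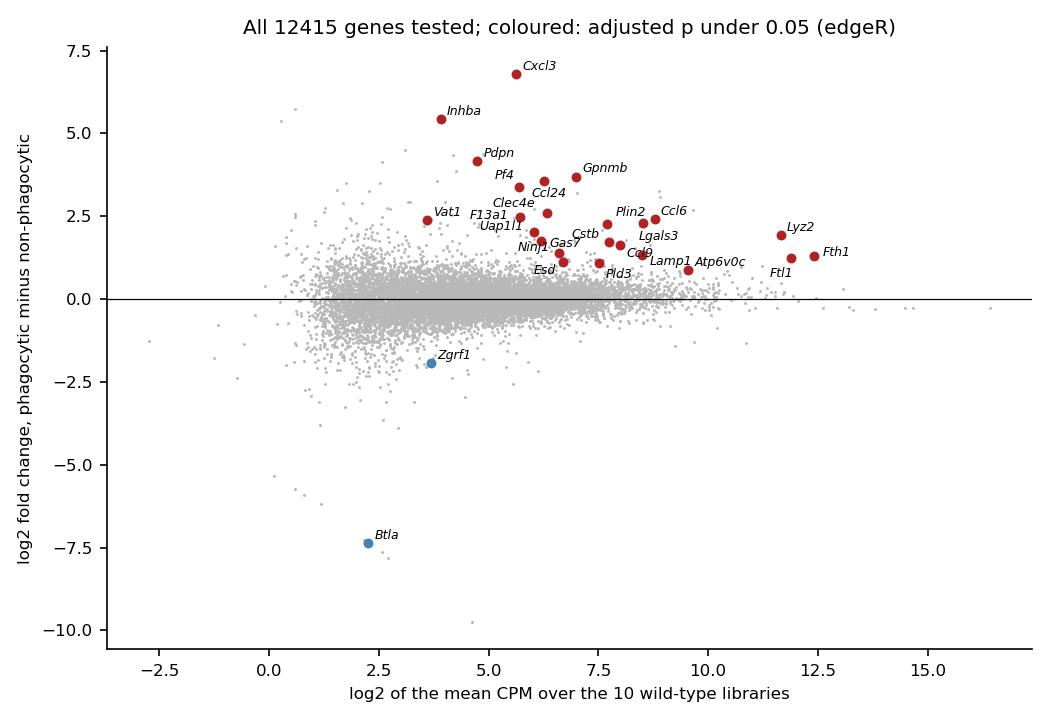
Log2 fold change of phagocytic minus non-phagocytic cells against log2 mean CPM over the 10 wild-type libraries for all 12415 genes tested; red and blue points are the 24 genes that rose and the 2 that fell. Cxcl3 lies highest at 6.78, and most genes called lie above 0 across the whole range of expression.

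Promoters of the genes that rose were searched for CACGTG, the core of the motif bound by the lysosomal regulators of the MiT/TFE family (TFEB, TFE3, MITF), since lysosomal and lipid genes stand among them. RefSeq (GRCm38.p6) gave a promoter of 300 bases, from 250 before to 50 after the start, for 20 of the 24 genes. The motif, which reads the same on both strands, was found in 4 of these 20 (20%), against 1095 of 9485 tested genes with a promoter (11.5%) and 2349 of 32851 promoters in all (7.15%). The 4 promoters are shown because they hold it, 5′ to 3′ on the gene's strand, with the motif in capitals.
Plin2 promoter, chr4:86670010-86670309, minus strand: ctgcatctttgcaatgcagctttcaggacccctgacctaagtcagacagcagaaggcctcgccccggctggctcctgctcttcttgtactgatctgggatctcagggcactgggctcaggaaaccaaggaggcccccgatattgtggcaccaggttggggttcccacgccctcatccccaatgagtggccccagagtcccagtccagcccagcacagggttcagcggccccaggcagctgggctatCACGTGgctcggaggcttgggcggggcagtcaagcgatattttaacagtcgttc
Lamp1 promoter, chr8:13158911-13159210, plus strand: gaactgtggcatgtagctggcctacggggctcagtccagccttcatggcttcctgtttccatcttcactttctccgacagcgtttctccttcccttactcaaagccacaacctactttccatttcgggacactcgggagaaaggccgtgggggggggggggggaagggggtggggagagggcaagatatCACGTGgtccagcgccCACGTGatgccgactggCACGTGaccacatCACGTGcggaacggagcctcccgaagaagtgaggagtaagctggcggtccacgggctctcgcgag
Pdpn promoter, chr4:143299515-143299814, minus strand: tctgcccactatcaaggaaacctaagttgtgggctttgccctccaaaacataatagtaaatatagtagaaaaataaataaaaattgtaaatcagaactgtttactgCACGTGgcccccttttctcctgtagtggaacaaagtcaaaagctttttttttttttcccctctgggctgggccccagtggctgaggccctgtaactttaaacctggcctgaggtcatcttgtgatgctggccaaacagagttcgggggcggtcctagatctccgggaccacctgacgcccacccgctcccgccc
Cxcl3 promoter, chr5:90785851-90786150, plus strand: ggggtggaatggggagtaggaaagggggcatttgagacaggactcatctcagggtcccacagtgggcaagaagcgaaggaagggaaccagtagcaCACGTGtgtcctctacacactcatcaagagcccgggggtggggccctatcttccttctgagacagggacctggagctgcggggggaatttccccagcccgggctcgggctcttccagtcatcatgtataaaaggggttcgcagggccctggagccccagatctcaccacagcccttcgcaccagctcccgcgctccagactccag
Lamp1 held 4 copies close to its start, whose first bases lie at -61, -45, -28 and -15 from it. The single copies of Plin2, Pdpn and Cxcl3 begin at -4, -144 and -155. Btla, which fell, also held 1 copy, at 5 bases after its start. The other motifs searched were the antioxidant response core TGACNNNGC, the AP-1 site TGANTCA, the interferon-type motif GAAA, any 2 bases, GAAA and the PU.1-type GAGGAAGT, each on both strands. They were found in 2 of the 20 promoters each (10%), against 16.7%, 6.47%, 4.02% and 3.93% of tested genes. A match describes the letters of these windows, not a bound site.

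Lipid storage was represented by Plin2 (chromosome 4, 86648386 to 86670060), which encodes perilipin 2, the coat of lipid droplets. Plin2 stood at 233, 463, 187, 537 and 295 CPM in phagocytic libraries and at 103, 44.1, 44, 92.2 and 76.3 CPM in non-phagocytic libraries. The lowest phagocytic library, number 3, lay above the highest non-phagocytic library, number 1. Plin2 rose 4.8-fold (log2 fold change 2.26 ± 0.31, edgeR adjusted p = 0.000628). Of the 29 tested genes of fatty acid use and lipid droplets, 22 were higher in phagocytic cells with a median log2 fold change of 0.37, where all genes tested had 6114 of 12415 higher (49.2%) and a median of -0.01. None of the 28 others passed. Among them the sorts did not overlap for the fatty acid binding protein genes Fabp5 (193 against 57.9 CPM, 1.74 ± 0.59, edgeR adjusted p = 0.363) and Fabp3 (5.3 against 0.539 CPM) or for Hilpda, an inhibitor of triglyceride breakdown (30.6 against 9.49 CPM). For Fabp5 the margin was narrow, since the lowest phagocytic library held 141 CPM and the highest non-phagocytic library 133 CPM. Among all genes tested, 1.51% were higher without overlap and 0.193% passed as higher.

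Cholesterol handling showed the same side without any gene passing the test. The list of targets of the sterol receptor LXR and of cholesterol efflux had 17 of 21 genes higher (median 0.50), with 8 past an unadjusted p of 0.05, a level that 4.6% of all genes reached on the higher side. Abca1, which exports cholesterol to apolipoproteins, stood at 123, 93, 106, 185 and 217 CPM against 24.7, 29.9, 44.7, 46.6 and 53.7 CPM. Its sorts did not overlap and its edgeR adjusted p was just above the threshold (1.85 ± 0.42, 0.0568). Nceh1, a neutral cholesterol ester hydrolase, averaged 60.6 against 31.3 CPM and Npc2, which moves cholesterol out of lysosomes, 673 against 413 CPM, also without overlap. Among all genes tested, 1.51% were higher without overlap. Apoe itself averaged 2280 against 1170 CPM (0.96 ± 0.35, edgeR adjusted p = 0.433), with phagocytic library 2 at 5140 CPM and the other 4 at 1320 to 2140 CPM, which overlapped the non-phagocytic 869 to 1600 CPM. Genes of cholesterol synthesis had 17 of 20 higher with a median of 0.20, none past an unadjusted p of 0.05. That median was -0.01 without phagocytic library 3 and 0.38 without phagocytic library 4.

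Lysosomal genes that rose came from the membrane, the proton pump and the lumen. Lamp1 (chromosome 8, 13159161 to 13175338), a main glycoprotein of the lysosomal membrane, stood at 392, 446, 532, 708 and 497 CPM in phagocytic libraries and at 231, 179, 177, 216 and 219 CPM in non-phagocytic libraries. All 5 phagocytic libraries were higher, by 2.52-fold on the fit (1.33 ± 0.23, edgeR adjusted p = 0.00694). Gpnmb, a glycoprotein of late endosomes and lysosomes, stood at 263, 366, 299, 161 and 98.6 CPM against 7.75, 24.3, 0.373, 7.59 and 49.8 CPM. Phagocytic library 5, the lowest of its sort, still exceeded non-phagocytic library 5, the highest of the other. Gpnmb rose 13-fold (3.70 ± 0.80, edgeR adjusted p = 0.0431). Atp6v0c, a subunit of the membrane ring of the proton pump, stood at 818, 925, 815, 1350 and 923 CPM against 444, 489, 556, 635 and 526 CPM. Phagocytic library 4 stood out upward, and the sorts did not overlap (0.87 ± 0.18, edgeR adjusted p = 0.0268).

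Among proteins of the lysosomal lumen and their inhibitors, 3 genes rose. Lyz2, which encodes lysozyme, stood at 4540, 7600, 2950, 6900 and 3550 CPM against 1030, 678, 768, 3210 and 1030 CPM. Non-phagocytic library 4 exceeded phagocytic library 3, so the sorts overlapped (1.93 ± 0.40, edgeR adjusted p = 0.0326). Lyz2 also counts as a marker of monocytes, and its reads can be shared with the near-identical Lyz1. Cstb, an inhibitor of cysteine cathepsins, stood at 340, 376, 162, 488 and 286 CPM against 132, 41.1, 70.1, 179 and 81.5 CPM, where again non-phagocytic library 4 exceeded phagocytic library 3 (1.72 ± 0.32, edgeR adjusted p = 0.0124). Pld3, a lysosomal exonuclease of single-stranded DNA and RNA, was the most even of the 24, at 223, 277, 251, 234 and 261 CPM against 101, 155, 133, 67.8 and 129 CPM. It rose 2.12-fold without overlap (1.08 ± 0.21, edgeR adjusted p = 0.0143), with a coefficient of variation of 8.53% over the phagocytic libraries.

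The lysosomal lists leaned the same way as these genes. Of 17 tested proton pump subunits, 15 were higher (median 0.54), 11 of them past an unadjusted p of 0.05, and 6 had sorts that did not overlap. Over all genes tested, 4.6% reached that level on the higher side and 1.51% were higher without overlap. Atp6v1e1, a subunit of the stalk, averaged 108 against 58.1 CPM (0.89 ± 0.21, edgeR adjusted p = 0.0857) and Atp6v1a, a catalytic subunit, 107 against 67.2 CPM. Of 44 hydrolases and their cofactors, 37 were higher (median 0.41) and 13 reached the unadjusted level, among them Acp5, an acid phosphatase (90.8 against 25.1 CPM), and Dnase2a, which digests DNA in lysosomes (123 against 75.3 CPM). Arsb, a sulfatase, ran the other way (93.6 against 192 CPM, edgeR adjusted p = 0.485). Of 22 membrane genes 16 were higher (median 0.30), and of 10 genes of the MiT/TFE factors and their regulators 8 were (median 0.29), with Tfeb at 20.1 against 15.2 CPM and Mitf at 21.8 against 11.3 CPM, neither of which passed.

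Some of the lysosomal calls lay close to the threshold. Gpnmb did not pass without any 1 of libraries 1 to 4 of either sort (edgeR adjusted p of up to 0.143, log2 fold changes of 3.37 to 3.84), Lyz2 in 7 of 10 such fits (up to 0.138, 1.74 to 1.97), Atp6v0c in 7 (up to 0.104, 0.72 to 0.89) and Pld3 without phagocytic library 2 or non-phagocytic library 1 or 3 (up to 0.0628, 1.04 to 1.13). The adjusted p without library 5 of both sorts was 0.0531 for Lamp1, 0.0528 for Gpnmb, 0.133 for Atp6v0c and Lyz2, 0.0883 for Cstb and 0.109 for Pld3.

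Transcripts of both chains of ferritin, the hollow shell in which cells deposit iron, rose. Ftl1, the light chain, stood at 4680, 6750, 3700, 6390 and 4930 CPM against 2690, 1790, 1880, 2720 and 2130 CPM. Fth1, the heavy chain with the iron-oxidising site, stood at 5660, 7300, 5160, 9860 and 11200 CPM against 3280, 2360, 3110, 3680 and 3330 CPM. The sorts did not overlap for either gene, and phagocytic library 5 was the highest for Fth1 but library 2 for Ftl1. Ftl1 rose 2.36-fold (1.24 ± 0.21, edgeR adjusted p = 0.00694) and Fth1 2.49-fold (1.31 ± 0.26, 0.0184). Ferritin genes have many processed pseudogenes, with which reads may be shared. Of 18 tested iron genes, 14 were higher (median 0.21, and 0.32 without phagocytic library 1). The other 16 did not pass, where 0.193% of all genes tested passed as higher. Hmox1, which frees iron from haem, averaged 219 against 81 CPM (edgeR adjusted p = 0.415) and Cp, a ferroxidase, 125 against 42.3 CPM, with 346 CPM in phagocytic library 5 alone. Without library 5 of both sorts the edgeR adjusted p of Ftl1 was 0.0531 and that of Fth1 was 0.175, and Fth1 also missed the threshold without phagocytic library 4 or 5 or non-phagocytic library 2, 3 or 5 (0.0514 to 0.0779).

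Genes that handle oxidants lay higher in phagocytic cells, again below the threshold of the test. Of 24 tested antioxidant genes, 22 were higher (median 0.45), 10 of them at the unadjusted level, and none passed after adjustment. Over all genes tested, 4.6% reached the unadjusted level on the higher side. Prdx1 and Prdx6, peroxide-reducing enzymes, averaged 834 against 460 CPM (0.86 ± 0.19, edgeR adjusted p = 0.0568) and 227 against 88.2 CPM (1.37 ± 0.33, 0.0819). Gstm1, a glutathione transferase, stood at 29.3, 47, 20.6, 41.1 and 15.1 CPM against 9.16, 2.24, 2.61, 11.4 and 2.17 CPM, without overlap (2.52 ± 0.62, edgeR adjusted p = 0.0857). The NADPH oxidase makes superoxide in the phagosome, and 6 of its 7 tested subunits were higher (median 0.51). Its membrane subunits Cyba (667 against 389 CPM, edgeR adjusted p = 0.0661) and Cybb (477 against 164 CPM, 0.0857) and the cytosolic Ncf4 (122 against 74.1 CPM, 0.223) each had sorts that did not overlap. Among all genes tested, 1.51% were higher without overlap.

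Chemokines gave the smallest p of the comparison. Ccl6 (chromosome 11, 83587882 to 83593087), a CC chemokine of mouse macrophages, stood at 934, 993, 437, 789 and 558 CPM in phagocytic libraries and at 152, 147, 161, 165 and 71.5 CPM in non-phagocytic libraries. Its neighbour Ccl9 (83572919 to 83578636), a related chemokine, stood at 442, 429, 286, 356 and 433 CPM against 132, 127, 146, 120 and 97.5 CPM. Phagocytic library 3 was the lowest of its sort for both genes and still lay well above every non-phagocytic library. Ccl6 rose 5.33-fold (2.41 ± 0.31, edgeR adjusted p = 0.000412) and Ccl9 3.13-fold (1.65 ± 0.24, 0.000828).

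Ccl24, or eotaxin-2, which attracts eosinophils, stood at 155, 95.9, 67.7, 109 and 282 CPM against 6.34, 15.7, 13.4, 21.7 and 1.73 CPM. Pf4, platelet factor 4, a CXC chemokine also made by border macrophages, stood at 74.2, 158, 92.6, 84.7 and 64.8 CPM against 14.1, 19.4, 8.57, 1.08 and 2.17 CPM. Neither gene overlapped between the sorts. Ccl24 rose 11.9-fold (3.57 ± 0.65, edgeR adjusted p = 0.0113) and Pf4 10.4-fold (3.37 ± 0.61, 0.0113). Cxcl3 (chromosome 5, 90786103 to 90789600), which draws neutrophils, was close to absent without uptake, with 158, 132, 128, 217 and 532 reads in phagocytic libraries against 1, 1, 1, 1 and 5 reads. In CPM that was 61.7, 42.5, 54.9, 92.8 and 236 against 0.373 to 2.17 (fitted log2 fold change 6.78 ± 1.28, edgeR adjusted p = 0.0141), and library 5 was the highest of both sorts. Its size rests on 9 reads in all 5 non-phagocytic libraries.

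The chemokine lists as a whole were less uniform. Of 12 tested CC chemokines, 10 were higher (median 0.46), and the 3 named above passed, where 0.193% of all genes tested passed as higher. Ccl5 ranged from 39.8 to 1400 CPM within the phagocytic sort, with libraries 4 and 5 high in both sorts, while Ccl17, a chemokine of dendritic cells, averaged 16.6 against 67.8 CPM. Of 8 tested CXC chemokines, 7 were higher (median 1.34), and 2 passed. Cxcl2 averaged 309 against 73 CPM (2.09 ± 0.71, edgeR adjusted p = 0.363) and Cxcl1 stood at 72.4 CPM in phagocytic library 5 and at 0 to 5.99 CPM in the other 9. With library 5 of both sorts left out, the edgeR adjusted p of Pf4 was 0.0618, and those of Ccl24 and Cxcl3 were 0.109. Cxcl3 also missed the threshold without non-phagocytic library 2 or 3 (0.06 and 0.0565).

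Secreted and surface proteins tied to tissue repair lay mostly on the higher side. Of 25 tested growth and repair genes, 23 were higher (median 0.81), 12 of them at the unadjusted level, and 3 passed. Over all genes tested, 4.6% reached the unadjusted level on the higher side and 0.193% passed there. Like all 40 lists, this one was drawn up with earlier results of these data known, so its counts are a description and not a test. Pdpn, podoplanin, a mucin-like surface glycoprotein, stood at 52.3, 38.3, 11.6, 50.5 and 99 CPM against 7.75, 0.374, 1.49, 3.79 and 1.73 CPM. It rose 18.1-fold without overlap (4.18 ± 0.78, edgeR adjusted p = 0.0126). F13a1, the A chain of coagulation factor XIII, stood at 60.9, 185, 45.4, 110 and 43.5 CPM against 21.8, 16.8, 10.8, 20.1 and 11.3 CPM and rose 5.55-fold (2.47 ± 0.51, 0.0309). Phagocytic library 2 was its highest, and no non-phagocytic library reached the phagocytic range.

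Inhba, the beta A subunit of activin, was the least even of the genes that passed. It stood at 0.781, 38.3, 1.29, 11.6 and 95.5 CPM against 0, 0.374, 1.49, 1.08 and 0 CPM, so that libraries 2, 4 and 5 of the phagocytic sort were high and libraries 1 and 3 overlapped the non-phagocytic sort. The reads were 2, 119, 3, 27 and 215 against 0, 1, 4, 2 and 0 (fitted log2 fold change 5.43 ± 1.06, edgeR adjusted p = 0.0184). Its coefficient of variation over the phagocytic libraries was 135%. Activin signals through receptors shared with the TGF-beta family, and of 21 tested genes of these pathways 4 were higher (median -0.23). Inhba was the only one to pass, where 0.193% of all genes tested passed as higher. Tgfbr1, a TGF-beta receptor, averaged 141 against 217 CPM (-0.62 ± 0.28, edgeR adjusted p = 0.603) and Smad7, an inhibitor of the pathway, 13.6 against 21.3 CPM (0.613).

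Several further repair genes did not overlap between the sorts without passing, where 1.51% of all genes tested were higher without overlap. Spp1, or osteopontin, stood at 1340, 3290, 817, 842 and 691 CPM against 123, 87.1, 126, 196 and 550 CPM (2.69 ± 0.66, edgeR adjusted p = 0.0857). Thrombospondin 1, Thbs1, stood at 328, 122, 258, 190 and 258 CPM against 19.7, 10.5, 4.85, 64 and 27.3 CPM (3.21 ± 0.77, 0.0829). Both lay apart, although non-phagocytic library 5 came near for Spp1. Mmp8, a collagenase, averaged 35.6 against 2.44 CPM, and Arg1, which splits arginine, 859 against 103 CPM, where non-phagocytic library 4 exceeded phagocytic library 3 (3.07 ± 0.86, edgeR adjusted p = 0.174). Leaving out library 5 of both sorts, the edgeR adjusted p was 0.155 for Pdpn, 0.109 for F13a1 and 0.274 for Inhba. Leaving out 1 library ended the call of Pdpn for non-phagocytic libraries 3 and 5 (up to 0.0537), of Inhba in 5 of 10 fits (up to 0.0982, without phagocytic library 5) and of F13a1 in 6 (up to 0.14, without phagocytic library 2).

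Among receptors and machinery of engulfment, 1 gene passed. Clec4e, or Mincle, a lectin receptor that senses dead cells, stood at 184, 98.1, 66.5, 198 and 143 CPM against 17.6, 4.86, 5.59, 58 and 28.6 CPM. It rose 6.09-fold without overlap (2.61 ± 0.56, edgeR adjusted p = 0.043), and non-phagocytic library 4 came closest to the phagocytic range. It was the only one of 28 tested uptake receptors to pass, where 0.193% of all genes tested passed as higher. Of the 28, 23 were higher (median 0.29, and 0.19 without phagocytic library 2). Axl, a receptor for proteins that bridge to phosphatidylserine (289 against 284 CPM, 0.03 ± 0.30), and Trem2, a lipid receptor (363 against 381 CPM, -0.07 ± 0.37), did not pass and overlapped widely. Msr1, a scavenger receptor, averaged 241 against 104 CPM (edgeR adjusted p = 0.45), Cd36, which binds oxidised lipids, 287 against 155 CPM (0.553), and Itgb3, an integrin chain, 11.8 against 28.5 CPM (0.613). Of 27 genes of actin and engulfment 22 were higher (median 0.24) with none called, and Pfn1, profilin, lay apart at 959 against 673 CPM (0.51 ± 0.18, edgeR adjusted p = 0.397).

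Maturation of phagosomes and autophagosomes gave 1 call among 29 tested genes, where 0.193% of all genes tested passed as higher. Of the 29, 23 were higher (median 0.33). Lgals3, galectin-3, a lectin that marks damaged lysosomes, stood at 658, 914, 361, 779 and 330 CPM against 132, 26.9, 48.1, 311 and 110 CPM. It rose 4.86-fold (2.28 ± 0.44, edgeR adjusted p = 0.0143), with non-phagocytic library 4 just under phagocytic library 5. Sqstm1, the autophagy adaptor p62, stood at 325, 615, 330, 320 and 444 CPM against 147, 216, 242, 204 and 241 CPM and came closest to the threshold among the genes that missed it (0.95 ± 0.21, edgeR adjusted p = 0.0518). Clec4e missed the threshold in 8 of 10 fits that left out 1 library (up to 0.132) and Lgals3 in 3 (up to 0.0568). Without library 5 of both sorts the edgeR adjusted p was 0.175 for Clec4e and 0.0633 for Lgals3.

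The other 5 genes that rose stood on none of the lists. Uap1l1, a relative of the enzyme that makes UDP-N-acetylglucosamine, stood at 93.3, 138, 63.9, 120 and 108 CPM against 22.5, 15.3, 18.6, 34.7 and 37.7 CPM. Ninj1, ninjurin, a membrane protein that breaks the plasma membrane of dying cells, stood at 131, 159, 98.6, 171 and 149 CPM against 33.1, 45.2, 69.3, 54.8 and 66.7 CPM. Both lay clearly apart, Uap1l1 with a 4.07-fold rise (2.02 ± 0.33, edgeR adjusted p = 0.00621) and Ninj1 with a 2.62-fold rise (1.39 ± 0.25, 0.0109). Gas7, a membrane-bending regulator of the actin cytoskeleton, stood at 137, 84.3, 59.2, 136 and 147 CPM against 16.2, 16.1, 30.9, 59.1 and 44.2 CPM. Its lowest phagocytic and highest non-phagocytic library nearly met (1.76 ± 0.33, edgeR adjusted p = 0.0126). Esd, esterase D, averaged 142 against 65.4 CPM (1.13 ± 0.23, 0.0284), and Vat1, a vesicle membrane protein, 20.2 against 3.84 CPM (2.39 ± 0.50, 0.0326), both without overlap. Without library 5 of both sorts the edgeR adjusted p was 0.0531 for Ninj1, 0.0709 for Gas7, 0.132 for Esd and 0.133 for Vat1. Esd also missed the threshold in 6 of 10 fits that left out 1 library (up to 0.13) and Vat1 in 8 (up to 0.113).

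The genes that fell were Btla and Zgrf1. Btla (chromosome 16, 45224315 to 45257670), an inhibitory receptor of lymphocytes and dendritic cells, had 0 reads in each phagocytic library and 10, 24, 10, 23 and 36 reads in the non-phagocytic libraries. That was 7.05, 8.97, 3.73, 12.5 and 15.6 CPM, and with a floor of 3 reads per library, a mean of 1.21 CPM, Btla was at least 7.92-fold lower in phagocytic cells (edgeR adjusted p = 0.043). Counting error alone is covered by this floor. Other markers of dendritic cells and of lymphocytes are given below, since most tested members of both lists were also lower. Zgrf1, a helicase of DNA repair, stood at 6.64, 2.25, 3.86, 6.84 and 7.55 CPM against 20.4, 32.2, 23.1, 10.8 and 16 CPM. All phagocytic libraries were lower (-1.92 ± 0.42, edgeR adjusted p = 0.0498). Leaving out 1 library ended the call of Btla in 9 of 10 fits (up to 0.102) and that of Zgrf1 in 9 (up to 0.197). Their edgeR adjusted p without library 5 of both sorts was 0.216 and 0.111.

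Most genes of the MGnD state lay on the higher side. Of 42 tested genes 38 were higher (median 0.67), 23 at the unadjusted level, 11 had sorts that did not overlap, and 7 passed (Ccl6, Plin2, Ftl1, Lgals3, Fth1, Lyz2 and Gpnmb). Over all genes tested, 4.6% reached the unadjusted level on the higher side, 1.51% were higher without overlap and 0.193% passed as higher. Anxa5, which binds phosphatidylserine, averaged 246 against 94 CPM and fell just short (1.39 ± 0.31, edgeR adjusted p = 0.0523). The surface marker Itgax ran the other way, at 80.7 against 108 CPM with 236 CPM in non-phagocytic library 4 (-0.42 ± 0.41). Homeostatic microglia genes lay on the lower side, with 9 of 35 higher (median -0.37), but none passed. P2ry12, the ADP receptor of resting microglia, stood at 197, 356, 250, 52.2 and 102 CPM against 236, 502, 421, 63.4 and 155 CPM (-0.52 ± 0.51, edgeR adjusted p = 0.906). The libraries varied more by number than by sort, and Tmem119 did the same (1010 against 1200 CPM, 0.965). At every library number P2ry12 was lower in the phagocytic library, and so was the summed homeostatic list. The sums were 22100, 34400, 32000, 11000 and 17100 CPM against 22800, 38700, 34700, 11500 and 18400 CPM. The main fit does not use this pairing. Across the edgeR, DESeq2 and limma alternatives, the replicate block included, the lowest adjusted p of P2ry12 was 0.177. Without non-phagocytic library 2 the median of the homeostatic list was -0.08, and without non-phagocytic library 4 it was -0.49.

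**Figure D3:**
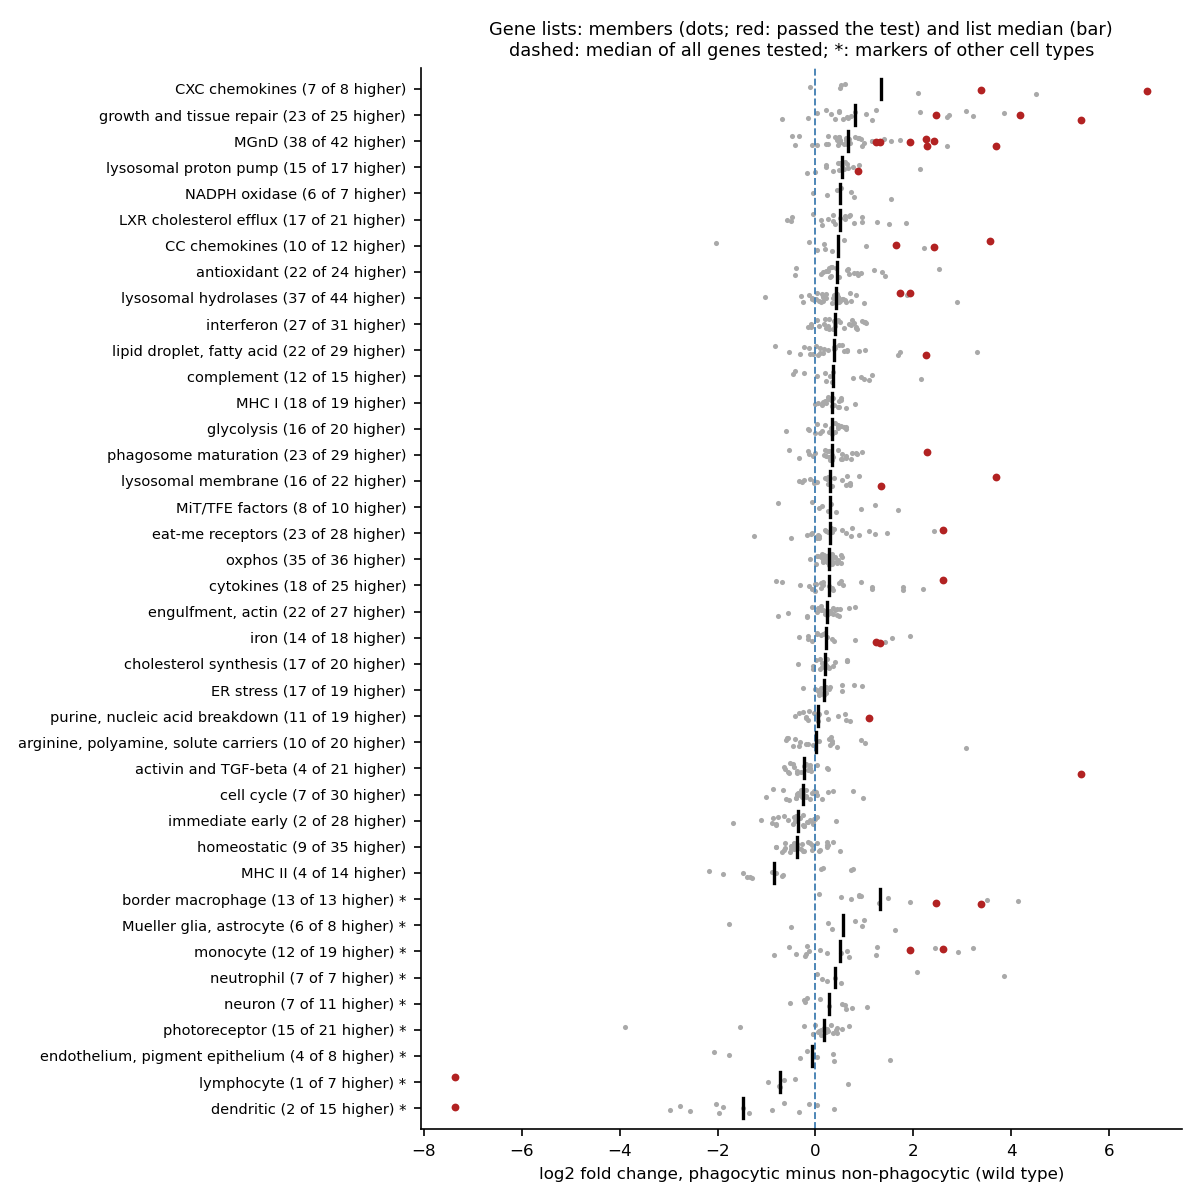
Log2 fold change of every tested member of the 40 gene lists (dots, red where the gene passed the test) with each list's median as a bar; the dashed line is the median of all genes tested and asterisks mark lists of other cell types. Of the 31 lists of functions 26 have a median above 0, with CXC chemokines (1.34) and growth and repair genes (0.81) among the highest and MHC class II (-0.84) the lowest.

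Immediate early genes, which respond fast to stimulation and handling, were lower in phagocytic cells as a list, with 2 of 28 higher (median -0.35) and 8 at the unadjusted level on the lower side, which 3.14% of all genes reached. None passed. Jun stood at 400, 466, 361, 309 and 195 CPM against 539, 877, 662, 472 and 476 CPM, and every phagocytic library was lower (-0.81 ± 0.25, edgeR adjusted p = 0.286). Egr1 averaged 405 against 709 CPM (-0.81 ± 0.21, 0.123) and overlapped at library 4 of the non-phagocytic sort.

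Genes of antigen presentation lay on opposite sides for the 2 classes of MHC. Of 19 tested genes of class I presentation, which shows internal peptides, 18 were higher (median 0.34, and 0.22 without phagocytic library 4), and B2m, the light chain, stood at 2200 to 2800 CPM against 1450 to 1820 CPM without overlap (0.63 ± 0.18, edgeR adjusted p = 0.197). Of 14 tested genes of class II presentation, which shows engulfed peptides to helper T cells, 4 were higher (median -0.84). On the lower side 8 reached the unadjusted level, as 3.14% of all genes did, and none was called. The 4 higher genes were Cd80, Cd86, Cd40 and Ctss. The class II chains, Cd74 and Ciita were all lower, with log2 fold changes of -0.654 to -2.168. H2-DMb2, a peptide-loading chain, came closest at 22.3, 27.3, 20.2, 42.4 and 13.8 CPM against 76.1, 31, 45.5, 178 and 140 CPM (-1.90 ± 0.42, edgeR adjusted p = 0.0518). The highest values belonged to non-phagocytic libraries 4 and 5, and phagocytic library 4 exceeded non-phagocytic library 2. Without those 2 non-phagocytic libraries the median of the class II list was -0.11. The direction of both lists was not tested as such.

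Interferon and complement genes also lay on the higher side without a call. Of 31 interferon-induced genes 27 were higher (median 0.40), and Bst2, or tetherin, stood at 330, 319, 424, 600 and 687 CPM against 285, 184, 240, 210 and 256 CPM without overlap (1.01 ± 0.29, edgeR adjusted p = 0.19). The median of this list was 0.20 without phagocytic library 4 and 0.59 without non-phagocytic library 4. Of 15 tested complement genes 12 were higher (median 0.35, and 0.21 to 0.67 without any 1 library). C1qc, part of the C1q complex that tags apoptotic cells, averaged 1300 against 606 CPM (1.10 ± 0.34, edgeR adjusted p = 0.259) and C3, the central component, 56.2 against 12.7 CPM (2.15 ± 0.54, 0.097). Of 25 tested cytokine genes and their receptors 18 were higher (median 0.27, and 0.11 without phagocytic library 5). Clec4e, counted here too, was the only call, where 0.193% of all genes tested passed as higher. The interleukin 1 antagonist Il1rn averaged 434 against 125 CPM and was high in library 4 and 5 of both sorts.

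No metabolic or cell cycle gene of the lists passed. Of 36 genes of oxidative phosphorylation 35 were higher, with a median of 0.27 (0.41 without non-phagocytic library 1), and of 20 glycolytic genes 16 were (median 0.33), with Aldoa, aldolase, at 1150 against 745 CPM (edgeR adjusted p = 0.299). Genes of endoplasmic reticulum stress had 17 of 19 higher (median 0.17, and 0.08 without phagocytic library 2). Of 30 cell cycle genes 7 were higher (median -0.25, and from -0.47 to -0.05 without any 1 library), and Pola1, a DNA polymerase subunit, averaged 58.2 against 106 CPM (-0.87 ± 0.25, edgeR adjusted p = 0.214). Lists of purine and nucleic acid breakdown (11 of 19 higher, median 0.05, Pld3 called) and of arginine, polyamines and solute carriers (10 of 20, 0.01) stood near the median of all genes, and their medians crossed 0 when 1 library was left out (-0.04 to 0.13 and -0.09 to 0.10).

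Among genes with a mean of at least 5 CPM in either sort, the next 15 by p had edgeR adjusted p of 0.0518 to 0.0819, and 14 of them were higher in phagocytic cells. Beside Sqstm1, Abca1, Anxa5, Prdx1, Prdx6, Cyba and the lower H2-DMb2, they were Aldh3b1, an aldehyde dehydrogenase (58.4 against 15.9 CPM), F10, coagulation factor X (113 against 17.3 CPM), Fcer1g, the signalling chain of Fc receptors and of Clec4e (1770 against 993 CPM), Ptges, a prostaglandin E synthase (3.57 ± 0.83), Cd93 (2.29 ± 0.53), Rhoc (1.39), Dtnbp1 (1.39) and Litaf (0.81). The gene just inside the threshold was Zgrf1 at 0.0498, and the one just outside was Sqstm1 at 0.0518.

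Markers of other macrophages and immune cells differed between the sorts as well. Border macrophages live at the edges of neural tissue, and their summed list (14 genes) stood at 1140, 1720, 1270, 1320 and 1660 CPM in phagocytic libraries and at 720, 786, 746, 658 and 803 CPM in non-phagocytic libraries. The sorts did not overlap, and without the called genes on the list the sums were 1000 to 1550 CPM against 637 to 789 CPM. Large parts of these sums were Stab1 (390 against 237 CPM), Ms4a6c (186 against 98.3), Siglec1 (121 against 65.5) and Gas6 (118 against 111). Mrc1 added 31.2 against 12.6 CPM. No gene was left out of this list for being expressed by microglia as well. All 13 tested border markers were higher (median 1.31), and 2 passed, Pf4 and F13a1, where 0.193% of all genes tested passed as higher. The defining marker Lyve1 had 0 CPM in phagocytic libraries 1 and 4. In phagocytic libraries 2, 3 and 5 it had 38.9, 9.43 and 7.99 CPM. Its log2 fold change was 4.135, higher in phagocytic cells, and it did not pass. Cbr2 was too low to be tested, at 2.34, 2.25, 13.7, 1.71 and 0.444 CPM against 0, 0.748, 0, 0 and 0 CPM. Folr2 averaged 10.7 against 0.879 CPM, apart between the sorts (3.50 ± 0.86, edgeR adjusted p = 0.0857). The part of such cells in the values of Pf4, F13a1 or any other gene was not tested.

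Monocyte markers (20 genes) summed to 7770, 9670, 4520, 12000 and 5610 CPM against 2350, 1390, 1540, 7780 and 3010 CPM, with non-phagocytic library 4 inside the phagocytic range. Of 19 tested 12 were higher (median 0.51, but -0.26 without phagocytic library 4 and 1.79 without non-phagocytic library 4). Ly6c2, a gene of the Ly6c antigen that the sort selected against, averaged 24.7 against 15.5 CPM and was highest in library 4 of both sorts. Of 7 tested neutrophil genes all 7 were higher (median 0.40, but -0.49 without phagocytic library 4 and 2.49 without non-phagocytic library 4), and the other 7 of 14, Elane and Ly6g among them, were too low to be tested. The part of monocytes and neutrophils in the values of Lyz2 and Clec4e was not tested, and 4 of 5 phagocytic libraries, all but number 3, stood above every non-phagocytic library for Lyz2.

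Dendritic cell markers lay on the lower side. Of 15 tested 2 were higher (median -1.48, and -0.92 without non-phagocytic library 4). Btla passed, where 0.0161% of all genes tested passed as lower. Without Cst3 and Siglech, which microglia express as well, their sum stood at 202, 179, 218, 490 and 258 CPM against 245, 209, 230, 813 and 820 CPM, so that non-phagocytic libraries 4 and 5 stood out. Cd209a, a lectin of dendritic cells, reached 215 and 121 CPM in those libraries, and the migration receptor Ccr7 56.4 and 128 CPM. Without them the list median was -0.32, and the edgeR adjusted p of Btla was 0.0764. Its fitted log2 fold change, which depends on the prior count, was -6.83 there and -7.36 with all libraries, and Btla had reads in all 5 non-phagocytic libraries. Class II genes followed the same libraries, with sums of 4390 to 8100 CPM in phagocytic libraries against 8390, 6310, 5810, 18900 and 12900 CPM. The part of dendritic cells in these values was not tested.

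**Figure D4:**
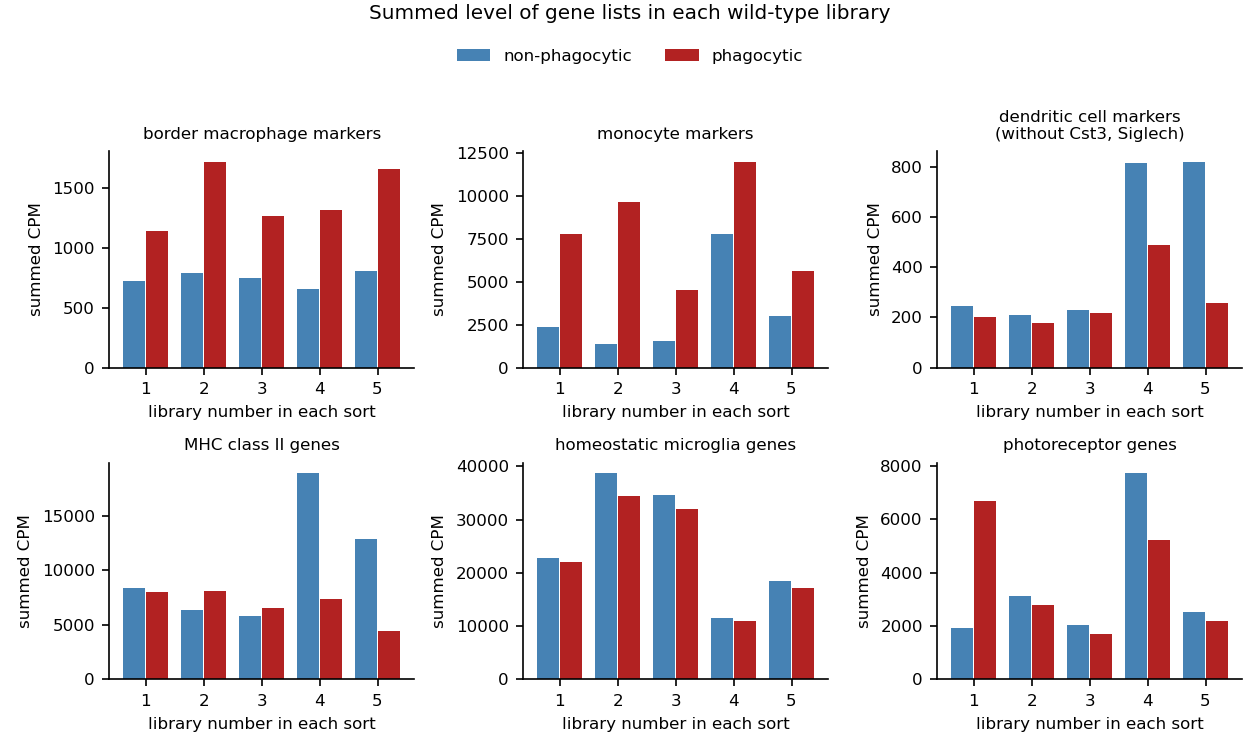
Summed CPM of 6 gene lists in each of the 10 wild-type libraries, as bars from 0 paired by library number. Border macrophage markers were higher in all 5 phagocytic libraries, while dendritic cell markers and MHC class II genes were highest in non-phagocytic libraries 4 and 5.

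Transcripts of neurons, the injected cargo, did not separate the sorts. Neuronal genes summed to 64.7 to 301 CPM in phagocytic and 63 to 348 CPM in non-phagocytic libraries, 7 of 11 tested genes were higher (median 0.28, but -0.15 without phagocytic library 1 and 1.27 without non-phagocytic library 4), and 15 of 26 were too low to be tested, with Gap43 at 0 reads in all 10. Photoreceptor genes summed to 1690 to 6700 CPM against 1920 to 7730 CPM, with the highest sums in phagocytic library 1 and non-phagocytic library 4. Mueller glia and astrocyte genes summed to 1740 to 5700 CPM against 1170 to 1840 CPM, mostly through Apoe, and endothelial and pigment genes to 44.5 to 120 CPM against 44.5 to 81.5 CPM. None of the tested genes of these lists passed. Lymphocyte genes summed to 84.7 to 202 CPM against 143 to 310 CPM, and 11 of 18 were too low to be tested. Of the 7 tested, 6 were lower (median -0.73, and -0.23 without non-phagocytic libraries 4 and 5). Btla, counted here too, passed, where 0.0161% of all genes tested passed as lower. The part of lymphocytes in the values of Btla was not tested.

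Library by library, the 24 genes that rose did not peak together. Phagocytic library 2 was the highest of its sort for 10 of them, library 4 for 7, library 5 for 6 and library 1 for 1, while library 3 was the highest for none and the lowest for 15. In the non-phagocytic sort library 4 was highest for 10 and library 2 lowest for 10. The coefficient of variation over phagocytic libraries ranged from 8.53% for Pld3 and 17.3% for Ccl9 to 81.6% for Cxcl3 and 135% for Inhba.

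Over 5074 well-expressed genes, the first principal component of the 10 libraries held 33.6% of the variance and did not part the sorts. Library 4 of both sorts lay at its positive end (28.4 and 26.2) and non-phagocytic libraries 2 and 3 at its negative end (-27.8 and -27). Genes with the strongest positive weights included Arg1, Il1rn, F10 and Plac8, and those with the strongest negative weights Slc2a5, Stmn1, P2ry12 and Tmem119. The second component (17.6%) parted the sorts, with all 5 phagocytic libraries between 5.22 and 20.1 and all 5 non-phagocytic libraries between -20.4 and -2.78. Its positive weights were led by Gpnmb, Ccl24, Arg1 and Spp1 and its strongest negative weights included the class II genes or regulators Ciita, H2-DMb2, H2-Eb1 and H2-Ab1 as well as Plac8, a marker of monocytes, and the predicted gene Gm4070. The components were computed from the same libraries and are a description.

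**Figure D5:**
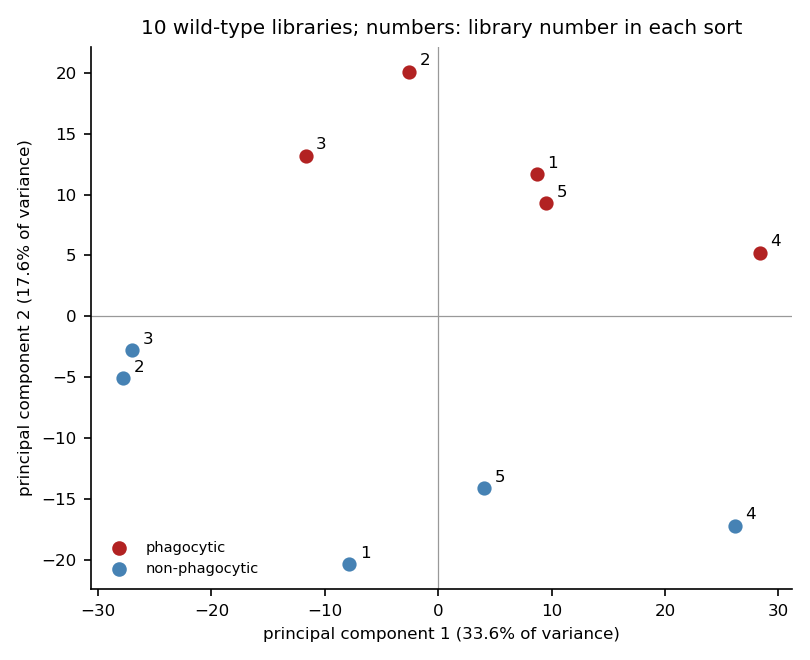
Scores of the 10 wild-type libraries on the first 2 principal components of log2 CPM over 5074 genes, with library numbers beside the points. The sorts part on component 2 (17.6% of variance) and mix on component 1 (33.6%), where library 4 of both sorts lies far to the right.

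Transcript use differed little between the sorts for most of the genes called. Btla had no phagocytic reads, and among the other 25 genes the transcript with the most reads was the same in both for all but Ccl24, Cxcl3, Inhba and Zgrf1, of which Cxcl3 and Inhba had 9 and 7 non-phagocytic reads. Plin2-201 held 95.6% of the Plin2 reads in phagocytic and 88.2% in non-phagocytic libraries, Ftl1-201 94.6% and 86.7% and Fth1-201 96.5% and 92.2%. F13a1-201 differed more, with 85.0% of the F13a1 reads in phagocytic and 45.8% in non-phagocytic libraries. These shares are of pooled reads and were not tested. Over single non-phagocytic libraries with at least 10 F13a1 reads, the F13a1-201 share ranged from 0.0% to 93.5%. For Clec4e the leading transcript is annotated as a retained intron and held 51.3% and 58.0% of its reads. The leading form of Zgrf1 in phagocytic libraries, with 41.1% of reads, is a retained intron too.

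The same split of cells from Apoe-/- retinas gave values for the same 26 genes. Its libraries are not among the 10 compared above, but both effects came from 1 fit of all 22 libraries. The gene filter and the estimate of spread were therefore shared between the genotypes, and passes in both are not independent of each other. In Apoe-/- cells, 58 genes passed (0.467% of those tested), 50 of them higher (0.403%). All 26 wild-type genes had the same sign, and 17 passed in the same direction. Plin2 differed by 2.24 ± 0.28 in Apoe-/- and 2.26 ± 0.31 in wild-type cells, Ccl9 by 1.66 ± 0.22 and 1.65 ± 0.24, Gpnmb by 4.21 ± 0.80 and 3.70 ± 0.80, and Lgals3 by 2.20 ± 0.40 and 2.28 ± 0.44 (log2). The difference of the effects of the sort was tested by an interaction term. It passed for 0 of 12415 genes in edgeR (0.0%), with 301 at an unadjusted p under 0.05 (2.42%), 5 of them among the 26. Those were Ccl6 (wild-type effect larger by 1.10 ± 0.41), Cxcl3 (by 5.16 ± 1.58), Inhba (by 4.44 ± 1.35), Btla (-5.53 ± 1.85) and Zgrf1 (-1.39 ± 0.56), each with an adjusted p of 1.0. Since the 26 were chosen on the wild-type effect, their larger estimate in wild-type cells in 20 of 26 is no evidence of a difference between genotypes.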

How the data were processed

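The authors deposited 1 file per library that holds, per the file headers, TPM values and estimated counts for 116248 transcripts. They also deposited FPKM values of genes, kept above an FPKM of 5 per the file headers. The build mm10 and the tools Salmon 1.4.0, DESeq2 1.30.1 and R 4.0.3 are named per the submitters' processing notes, with no role given. Annotation, strand setting, read filters and sequencing batch were not given in the sources used here. Such estimates share reads among similar transcripts, so counts of near-identical genes are uncertain.

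Transcripts were matched to GENCODE M21 (GRCm38). Of them 116072 matched, and the 176 unmatched held 0.127% to 0.216% of reads and were left out. Estimated counts were summed per gene (35596 genes) and rounded to whole numbers. edgeR 4.0.16 in R 4.3.3 fitted all 22 libraries as 4 groups, which share 1 estimate of spread (quasi-likelihood test, TMM scaling, filterByExpr with a minimum count of 10, 12415 genes tested, Benjamini-Hochberg adjustment, threshold 0.05). The biological coefficient of variation was 0.426. CPM is given as library values or their mean, log2 fold changes as estimate ± SE. TPM served to compare levels between genes. On simulated data of 12084 genes the test called 8 of 40 genes changed by 1 on the log2 scale, 27 of 40 by 2 and 37 of 39 by 3, with 3 calls among 11888 unchanged genes.

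The comparison, its members and the 40 gene lists were chosen with earlier results of these data known, so that list counts are descriptions. Named were the genes called, the 15 next by p with a mean of at least 5 CPM, up to 5 members per list by size of the fold change, and a fixed set of microglial genes; Ddx3y and the genes named for the components were chosen after their values were seen. Alternatives were DESeq2 1.42.0, its size factors, limma 3.58.1, other filters, other libraries and a replicate block. Libraries of a sort differed by more than sampling noise (chi-square over degrees of freedom 7 to 50.7), so none was a copy.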

Additional observations from a re-analysis of the deposited data

Results flagged for a closer look

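Of 113 sets of 5 libraries checked over 53 genes, 13 held a library whose gap to its nearest neighbour, over the range of the set, exceeded 0.71, a level that chance passes in about 1 of 20 sets. Non-phagocytic library 4 was such a high value for 5 genes, namely Lyz2 (3210 CPM, against 678 to 1030 in the other 4), F10 (55.3 against 1.86 to 14.3), Litaf (177 against 105 to 118), Ly6c2 (55.8 against 0.746 to 15.5) and Itgax (236 against 58.7 to 97.1). Phagocytic library 4 was high for Atp6v0c (1350 CPM against 815 to 925) and for Aldh3b1 (85.6 against 49.7 to 55.3). Phagocytic library 2 was high for Apoe (5140 CPM against 1320 to 2140) and for Spp1 (3290 against 691 to 1340). Library 5 stood apart for Cxcl3 in both sorts (236 CPM against 42.5 to 92.8, and 2.17 against 0.373 to 0.705), for Spp1 in the non-phagocytic sort (550 against 87.1 to 196) and, as a low value, for Ccl6 there (71.5 against 147 to 165).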

How the results depend on the processing

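The 26 calls became 103 with DESeq2 (85 higher), 122 without a filter on low counts (93 higher, 32368 genes tested), and 17 with counts from TPM. Leaving out 1 library gave 13 to 64 calls, the lowest without non-phagocytic library 3 and the highest without non-phagocytic library 4. Chosen after seeing the data were fits without library 4 of both sorts (27 calls), without library 5 of both sorts (4), without non-phagocytic libraries 4 and 5 (74) and limma on the authors' FPKM (20, of which 14 are among the 26). DESeq2 called all 26. Of 594 alternative values of the called genes, 438 stayed past the threshold, 156 did not, and 0 reversed. Of 180 uncalled named genes, 62 passed in at least 1 alternative. Of 40 list medians, 8 changed sign in an alternative. The cause of these differences was not tested. Counts from TPM lost Gas7, Esd, F13a1, Vat1, Lyz2, Clec4e, Gpnmb and Zgrf1. limma on FPKM did not call Ftl1, Ninj1, Gas7, Pld3, Inhba, Fth1, Atp6v0c, Esd, F13a1, Vat1, Lyz2 and Zgrf1, limma on log2 CPM did not call Inhba, F13a1 and Zgrf1, and the fit with no filter did not call Atp6v0c.

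Pools share numbers across the sorts, but the labels do not say that a number marks shared animals. The deviations of same-numbered pools from their group means correlated at 0.0402, 0.122, 0.231, 0.423 and 0.122, so that 4 of 5 pairs but not every pair exceeded 0.1, and the pairing was not used. Pools 4 and 5 matched their own number best. Phagocytic pools 1, 2 and 3 matched another number best, at 0.0672, 0.133 and 0.266. Same-numbered pools also shared traits, since library 5 of both sorts lacked Ddx3y reads and Tmem119 was lowest in library 4 of both. Whether a number marks shared animals was not tested. With the replicate block, fitted on the 10 wild-type libraries, 126 genes passed (101 higher, 24 of the 26), against 20 in the fit of the same libraries without it. Statements that no gene of a list passed refer to the fit without the block.

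Genes with few reads limit the comparison. The folds of Cxcl3 and Inhba rest on 9 and 7 non-phagocytic reads, and on simulated data 8 of 40 genes changed by 1 on the log2 scale were called at this size.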
